A study of Rattus norvegicus with 12 samples.

Results

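The comparison set rat sciatic nerve stumps fitted with a verteporfin-loaded conduit of the 4:2 gradient (VP4:2) against stumps labelled Control. It used the 3 VP4:2 and the 3 Control samples, 6 of the 12 samples of the series, and every gene that passed a filter on low counts, 15712 of the 30562 genes in the count table. The remaining samples, 3 a group, came from stumps with an unloaded conduit of the 4:2 gradient (CC4:2) or of the 4:4 gradient (CC4:4), where CC stands for the cone-shaped conduits whose effect on pain the series addresses, and the verteporfin group was added because of an interest in YAP. The labels give no genotype, strain, sex, age, verteporfin dose or time after injury, and they do not say what the control stumps received or whether each sample came from a separate animal. A p-value here is thus set by how much samples of a group differ, and that difference could be technical only. VP4:2 stumps had both a conduit and verteporfin, so the effects of the conduit and of the compound cannot be told apart in VP4:2 against Control. The test that bears on the loading is VP4:2 against CC4:2, and its values stand beside many of the results below. Where they are not given, nothing is said of that comparison.

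When a peripheral nerve is cut, Schwann cells of the stump break down their myelin and turn into repair cells, while neutrophils and then macrophages clear debris and fibroblasts lay down scar, a process that can end in a painful neuroma. YAP and its partner TAZ (gene Wwtr1) are coactivators that enter the nucleus when cells are stretched or sit on a stiff matrix and act there through TEAD transcription factors. In Schwann cells YAP and TAZ are known to be needed for myelination. Verteporfin is a porphyrin drug that disrupts binding of YAP to TEAD and that is also used as a light-activated sensitizer.

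Library totals ran from 13763067 to 18632280 counts over the 6 samples, and levels below are CPM, counts normalised to library size, scaled by the trimmed mean of M-values (TMM). The first principal component of the 12 samples held 58.4% of the variance and placed VP4:2 at 28.2 to 47.9, between Control at -93.8 to -66.6 and CC4:2 at 84.4 to 122. On the second component, with 11.6% of the variance, Control sample 1 lay at 84.9 and the other Control samples at -34.1 and -55.9. The labelled tissue was checked with Schwann cell markers, of which S100b was present in every sample and lowest in Control sample 1. Skeletal muscle transcripts varied within both groups: the 11 muscle genes summed to 5.51, 816 and 8318 CPM in Control and 5968, 7211 and 235 CPM in VP4:2. None of the muscle genes was called in VP4:2 against Control (0 at an unadjusted p under 0.05, 0 by DESeq2 and 0 by limma-voom). Sample 3 of every group was read on a DNBSEQ instrument and samples 1 and 2 on a NovaSeq, so the instrument was balanced over the groups. These are bulk samples, in which fewer cells of a type and less RNA per cell cannot be told apart.

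Of the 15712 genes, 2964 (18.9%) differed between VP4:2 and Control at an adjusted p under 0.05 in edgeR's quasi-likelihood test, and such genes are termed called. Higher in VP4:2 were 1461 genes (9.3%) and lower were 1503 (9.57%), 1775 of the called genes changed at least 2-fold, and the median log2 fold change of all genes was -0.04. The groups did not overlap in CPM for 6070 genes (38.6%). Most genes named from lists below were picked as called members of smallest p. Their lack of overlap therefore describes their levels and adds no support to the calls. Myelin, Schwann cell, perineurial, adipocyte and lipid synthesis genes made up the lists with the largest shares called higher, and neutrophil, B cell, T cell and cytokine genes those with the largest shares called lower. Every list count below is read against the shares of all genes, 9.3% higher and 9.57% lower. Against CC4:2 these shares were 5.23% and 0.999%. The number of calls moved with single libraries. It rose to 4294 of 15975 genes without Control replicate 1, 2103 higher and 2191 lower. List counts given below for that omission are read against these numbers, and list counts were not taken for the other single omissions. The number of calls was 2265 without Control replicate 2, 1166 without Control replicate 3, 1220 without VP4:2 replicate 1, 1228 without VP4:2 replicate 2 and 1605 without VP4:2 replicate 3. In all, 912 genes were called whichever of the 6 libraries was left out. In the 8 NovaSeq samples alone, with 2 samples a group, 19 genes were called, and of the 185 called genes picked by the naming rule 10 kept their call: Cxcl2, Il1b, Ptgs2, S100a9, Csf3r, Nos2, Nlrp12, Cfi, Vgll3 and Robo2.

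**Figure D1:**
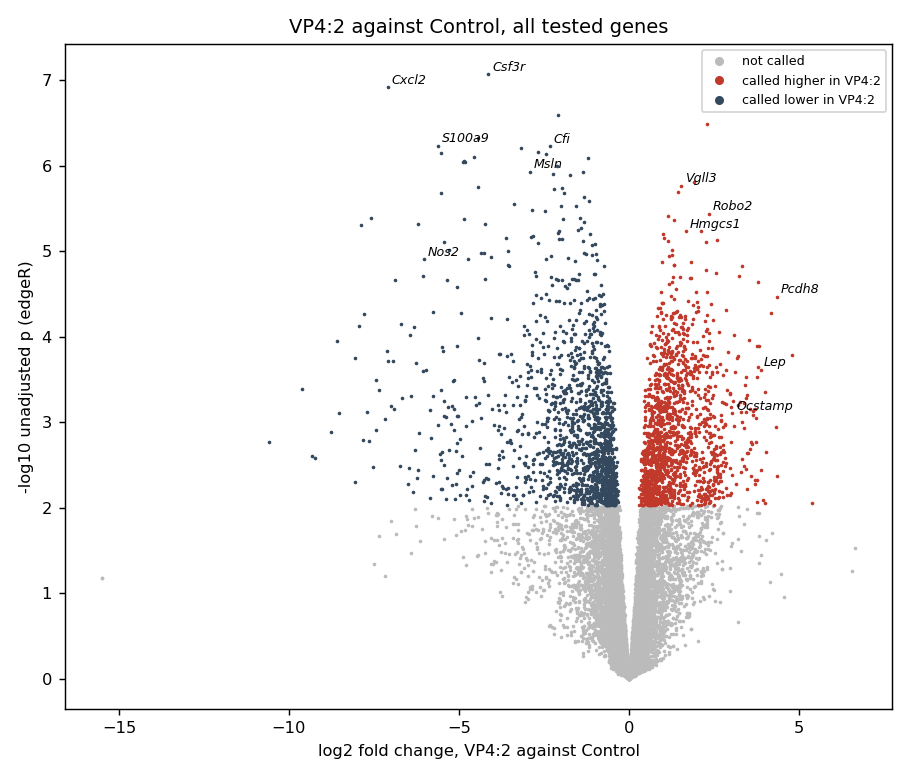
Each point is 1 of the 15712 tested genes, with the log2 fold change of VP4:2 against Control on the horizontal axis and the -log10 unadjusted p of edgeR's test on the vertical axis. Red points are the 1461 genes called higher in VP4:2 and dark points the 1503 called lower. The named falls reach further from 0 (Cxcl2 at -7.09) than the named rises (Pcdh8 at 4.37).

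**Figure D2:**
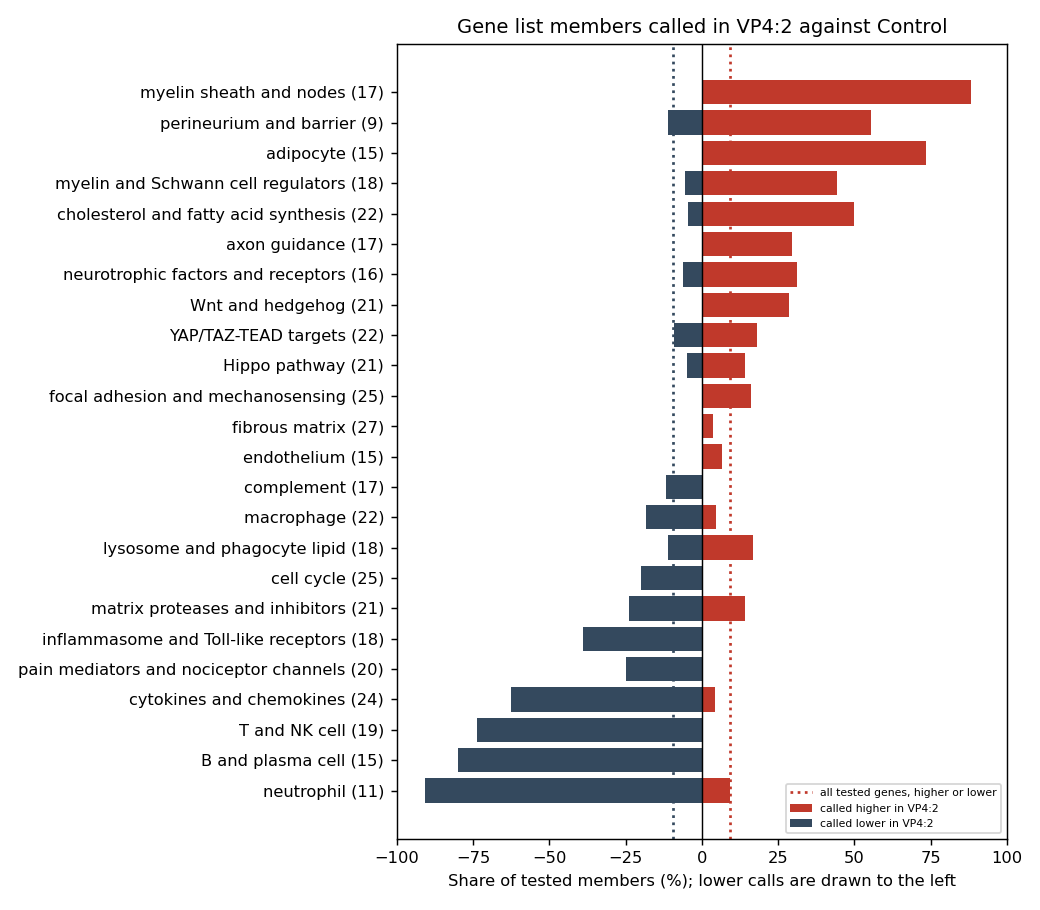
Bars give the share of each gene list's tested members (number in brackets) called higher (right, red) or lower (left, dark) in VP4:2 against Control at an adjusted p under 0.05 in edgeR. Dotted lines mark the shares over all tested genes, 9.3% higher and 9.57% lower. The myelin bar reaches furthest to the right, with 15 of 17 members, and the neutrophil bar furthest to the left, with 10 of 11.

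Genes of the myelin sheath were higher in VP4:2 stumps than in Control stumps. Of 17 tested genes of the myelin sheath and its nodes, 15 were called higher and none lower, against 18.9% of all genes called, with a median log2 fold change of 2.51. Pmp22, a membrane protein of compact myelin, had 148, 740.2 and 426 CPM in the Control samples and 2399, 2731 and 2031 CPM in the VP4:2 samples, a log2 fold change of 2.45 (SE 0.50, adjusted p = 0.011). Mpdz, a scaffold protein of cell junctions, had 35.1, 51.4 and 30.5 CPM in Control and 78.9, 95.01 and 77.8 CPM in VP4:2, a log2 fold change of 1.11 (SE 0.21, adjusted p = 0.0081). In both genes every VP4:2 sample lay above every Control sample. Drp2, which links the Schwann cell membrane to its outer matrix, was not called, with 4.95, 113 and 57.99 CPM in Control and 279, 375 and 194 CPM in VP4:2 and a log2 fold change of 2.27 (SE 0.79, adjusted p = 0.069). The 17 genes summed to 609, 5499 and 3251 CPM in Control and 17817, 21882 and 14452 CPM in VP4:2, with Control sample 1 the lowest. Drp2 was called without Control replicate 1 or Control replicate 2 (adjusted p 0.022 to 0.17 over the 6 single omissions), and without Control replicate 1 all 17 members were called higher. Against the unloaded CC4:2 conduit, where 6.23% of all genes were called, none of the 17 was called (0 at an unadjusted p under 0.05, 0 by DESeq2 and 0 by limma-voom), with a median log2 fold change of -0.60. In that comparison 0 of the 17 were above 0.

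Some regulators of the Schwann cell state were also called higher. Of 18 tested regulators 8 were called higher and 1 lower, or 10 and none without Control replicate 1, with a median log2 fold change of 1.62. S100b, a calcium-binding protein that marks Schwann cells, had 14.1, 55.4 and 42.7 CPM in Control and 209, 225 and 238 CPM in VP4:2, a log2 fold change of 2.58 (SE 0.48, adjusted p = 0.0077). Erbb2, a partner in the neuregulin receptor that drives Schwann cell growth and myelination, had 8.77, 16.2 and 11.1 CPM in Control and 37.1, 48.98 and 27.3 CPM in VP4:2, a log2 fold change of 1.65 (SE 0.30, adjusted p = 0.0068). All 3 VP4:2 samples lay above all Control samples for both. Egr2, the transcription factor that switches on myelin genes, had 19.3, 31.8 and 29.1 CPM in Control and 80.5, 81.1 and 78.6 CPM in VP4:2, a log2 fold change of 1.58 (SE 0.38, adjusted p = 0.018). Ngfr, the low-affinity neurotrophin receptor that is high in immature and repair Schwann cells, had 5.005, 22.96 and 8.88 CPM in Control and 70.9, 82.2 and 54.2 CPM in VP4:2, a log2 fold change of 2.50 (SE 0.59, adjusted p = 0.017). The VP4:2 samples again lay above the Control samples in both. The call was lost for Egr2 without Control replicate 3, VP4:2 replicate 1 or VP4:2 replicate 2 (adjusted p 0.03 to 0.053 over the 6 single omissions) and for Ngfr without Control replicate 3 or VP4:2 replicate 2 (adjusted p 0.0083 to 0.071 over the 6 single omissions). Against Control, where 9.3% of all genes were called higher and 9.57% lower, 2 of 12 genes of the repair state were higher and 1 lower. Against CC4:2, where the shares were 5.23% and 0.999%, 1 of the 12 genes of the repair state was higher and none lower. Jun, the factor that sets up that state, was not called, with 94.9, 89.3 and 90.3 CPM in Control and 136, 137 and 111 CPM in VP4:2. The fall was in Clcf1, a cytokine of the ciliary neurotrophic factor family, with 6.02, 9.06 and 5.41 CPM in Control and 2.41, 2.09 and 2.43 CPM in VP4:2 and a log2 fold change of -1.56 (SE 0.32, adjusted p = 0.011). None of the 18 regulators was called against CC4:2 (1 at an unadjusted p under 0.05, 1 by DESeq2 and 0 by limma-voom). Their median log2 fold change against CC4:2 was -0.41, with 2 of the 18 above 0.

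Schwann cells send a hedgehog signal to the nerve sheath, and Dhh, Ptch1 and Hhip were among the genes of Wnt and hedgehog signalling called higher. Of 21 tested genes of this list 6 were called higher and none lower in VP4:2 against Control, or 7 and 1 without Control replicate 1, with a median log2 fold change of 0.95. Dhh, the desert hedgehog ligand made by Schwann cells, had 9.33, 26.4 and 14.9 CPM in Control and 75.9, 90.2 and 47.9 CPM in VP4:2, a log2 fold change of 2.08 (SE 0.43, adjusted p = 0.011). Ptch1, the hedgehog receptor and itself a target of the pathway, had 16.2, 90.3 and 37.2 CPM in Control and 245, 281 and 231 CPM in VP4:2, a log2 fold change of 2.40 (SE 0.50, adjusted p = 0.011). Hhip, a membrane protein that binds hedgehog ligands and is likewise a pathway target, had 0, 0.234 and 0.162 CPM in Control, from 5 counts in all, and 0.987, 2.36 and 2.81 CPM in VP4:2, a log2 fold change of 4.00 (SE 0.81, adjusted p = 0.0098). No VP4:2 sample overlapped with Control for any of these. The call was lost for Ptch1 without Control replicate 3 (adjusted p 0.003 to 0.05 over the 6 single omissions). The other higher members included Sfrp5, a secreted Wnt inhibitor, with 5.398, 31.5 and 22.05 CPM in Control and 124, 125 and 125 CPM in VP4:2 and a log2 fold change of 2.67 (SE 0.49, adjusted p = 0.0072). Wnt6, a ligand, had 4.61, 8.75 and 4.04 CPM in Control and 18.4, 19.98 and 12.9 CPM in VP4:2, a log2 fold change of 1.56 (SE 0.31, adjusted p = 0.009). None of the 21 was called against CC4:2 by the same test (7 at an unadjusted p under 0.05, 2 by DESeq2 and 1 by limma-voom). Their median log2 fold change against CC4:2 was -0.70, with 3 of the 21 above 0.

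Most tested barrier genes of the perineurium, the cell sleeve around nerve fascicles, were called higher. Of 9 tested genes 5 were called higher and 1 lower, with a median log2 fold change of 2.38. Tjp1, a scaffold of tight junctions, had 147, 139.8 and 87.2 CPM in Control and 265, 294 and 263 CPM in VP4:2, a log2 fold change of 1.14 (SE 0.22, adjusted p = 0.0089). Sbspon, a secreted matrix protein, had 1.07, 9.53 and 3.23 CPM in Control and 37.1, 32.8 and 27.7 CPM in VP4:2, a log2 fold change of 2.84 (SE 0.64, adjusted p = 0.015). The groups were apart in both, and the call was lost for Sbspon without Control replicate 3 (adjusted p 0.0047 to 0.061 over the 6 single omissions). The fall was in Msln, mesothelin, a surface glycoprotein of mesothelium, with 149, 71.2 and 83.8 CPM in Control and 17.05, 11.8 and 11.3 CPM in VP4:2. Its log2 fold change was -2.92 (SE 0.30, adjusted p = 0.00097). None of the 9 was called against CC4:2 (2 at an unadjusted p under 0.05, 0 by DESeq2 and 0 by limma-voom). Their median log2 fold change against CC4:2 was -0.89, however, and 0 of the 9 were above 0. The 9 genes summed to 2339, 2530 and 1908 CPM in VP4:2 and 5220, 4682 and 4519 CPM in CC4:2.

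Among guidance cues for growing axons, 5 of 17 tested genes were called higher and none lower, with a median log2 fold change of 0.55. Robo2, a receptor for the repellent Slit proteins, had 4.89, 4.29 and 4.68 CPM in Control and 28.5, 25.7 and 17.1 CPM in VP4:2, a log2 fold change of 2.36 (SE 0.27, adjusted p = 0.0016). It was the 1 guidance gene called against CC4:2, where it had 9.95, 10.8 and 13.4 CPM and the log2 fold change of VP4:2 against CC4:2 was 1.06 (SE 0.26, adjusted p = 0.037). Slit2, one of its ligands, had 32.1, 38.96 and 23.9 CPM in Control and 99.1, 126 and 76.3 CPM in VP4:2, a log2 fold change of 1.67 (SE 0.26, adjusted p = 0.0046). Ntn1, netrin 1, which attracts or repels axons by receptor, had 13.05, 40.4 and 29.8 CPM in Control and 106, 119 and 104 CPM in VP4:2, a log2 fold change of 1.99 (SE 0.37, adjusted p = 0.0074). Sema3d, a secreted semaphorin, had 12.3, 14.7 and 6.06 CPM in Control and 28.3, 39.9 and 30.6 CPM in VP4:2, a log2 fold change of 1.58 (SE 0.28, adjusted p = 0.0067). Each of these was higher in all 3 VP4:2 samples than in any Control sample. Of 16 neurotrophic factors and receptors 5 were called higher and 1 lower. Igf1, a growth factor for neurons and Schwann cells, was not called and had 254, 166 and 124 CPM in Control and 217, 301 and 340.2 CPM in VP4:2, a log2 fold change of 0.66 (SE 0.36, adjusted p = 0.22).

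Many genes of lipid synthesis were called higher too. Of 22 enzymes and regulators of cholesterol and fatty acid synthesis, which supply myelin membrane as well as fat cells, 11 were called higher and 1 lower, with a median log2 fold change of 0.75. Hmgcs1, which makes the precursor of mevalonate, had 36.3, 48.8 and 46.04 CPM in Control and 131, 147 and 142 CPM in VP4:2, a log2 fold change of 1.68 (SE 0.21, adjusted p = 0.0018). Acaca, the enzyme that commits acetyl-CoA to fatty acids, had 43.7, 53.4 and 51.6 CPM in Control and 102, 109 and 104 CPM in VP4:2, a log2 fold change of 1.08 (SE 0.18, adjusted p = 0.0055). All VP4:2 samples lay above all Control samples in both. The single fall was in Lss, lanosterol synthase, with 25.02, 38.4 and 42.9 CPM in Control and 25.3, 19.2 and 22.8 CPM in VP4:2 and a log2 fold change of -0.66 (SE 0.20, adjusted p = 0.046), a call lost for Lss without Control replicate 2, Control replicate 3, VP4:2 replicate 1, VP4:2 replicate 2 or VP4:2 replicate 3 (adjusted p 0.0067 to 0.19 over the 6 single omissions), and VP4:2 sample 1 lay just above Control sample 1. Lss was also called lower in VP4:2 than in CC4:2, where it had 44.7, 42.6 and 34.4 CPM and the log2 fold change was -0.85 (SE 0.20, adjusted p = 0.034). In all, 2 of the 22 were called lower and none higher against CC4:2 (14 at an unadjusted p under 0.05, 10 by DESeq2 and 2 by limma-voom). The median log2 fold change against CC4:2 was -0.57, and none of the 22 was above 0.

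Fat cell genes were higher by the largest list median. Of 15 tested adipocyte genes 11 were called higher and none lower, with a median log2 fold change of 3.03. Lep, the hormone leptin, had 3.599, 5.47 and 3.31 CPM in Control and 29.4, 49.2 and 103 CPM in VP4:2, a log2 fold change of 3.87 (SE 0.72, adjusted p = 0.0076). Cidea, which enlarges lipid droplets, had 0.675, 0.781 and 1.53 CPM in Control and 6.41, 5.91 and 13.4 CPM in VP4:2, a log2 fold change of 3.11 (SE 0.59, adjusted p = 0.0077). Lpl, the lipoprotein lipase that fat cells and macrophages secrete, had 262, 223 and 246 CPM in Control and 869, 915 and 1867 CPM in VP4:2, a log2 fold change of 2.32 (SE 0.48, adjusted p = 0.011). In these 3 genes VP4:2 sample 3 was the highest of the 6 and no groups overlapped. The 15 genes summed to 1059, 947 and 983 CPM in Control and 3257, 3878 and 7031 CPM in VP4:2. How much fat lay on each stump was not tested. None of the 15 was called against CC4:2 (0 at an unadjusted p under 0.05, 0 by DESeq2 and 0 by limma-voom). Their median log2 fold change against CC4:2 was -0.59, with 3 of the 15 above 0.

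Neutrophil genes fell further than any other list. Of 11 tested neutrophil genes 10 were called lower and 1 higher in VP4:2 against Control, with a median log2 fold change of -4.06, and the list summed to 641, 408 and 574 CPM in Control and 34.8, 35.2 and 35.3 CPM in VP4:2. S100a9, a subunit of the calprotectin that fills neutrophil cytoplasm, had 266, 129 and 162 CPM in Control and 5.04, 4.14 and 2.27 CPM in VP4:2, a log2 fold change of -5.60 (SE 0.54, adjusted p = 0.0009). Csf3r, the receptor for granulocyte colony-stimulating factor, had 91.7, 68.2 and 85.2 CPM in Control and 4.604, 4.94 and 4.44 CPM in VP4:2, a log2 fold change of -4.13 (SE 0.33, adjusted p = 0.0009). Cxcr2, the receptor by which neutrophils follow CXC chemokines, had 67.99, 28.4 and 48.5 CPM in Control and 3.23, 4.995 and 3.57 CPM in VP4:2, a log2 fold change of -3.62 (SE 0.45, adjusted p = 0.0019). All Control samples were far above all VP4:2 samples in these genes, and the VP4:2 samples lay close together. Mmp8, a collagenase of neutrophil granules, had 20.8, 10.9 and 9.13 CPM in Control and 0.0548, 0.645 and 0.162 CPM in VP4:2, a log2 fold change of -5.53 (SE 0.61, adjusted p = 0.0011). Mpo, the granule enzyme myeloperoxidase, was the exception, with 0.8997, 1.09 and 0.969 CPM in Control and 3.45, 7.79 and 7.84 CPM in VP4:2 and a log2 fold change of 2.68 (SE 0.75, adjusted p = 0.032), a call lost for Mpo without Control replicate 1, Control replicate 2, Control replicate 3, VP4:2 replicate 2 or VP4:2 replicate 3 (adjusted p 0.049 to 0.098 over the 6 single omissions). Against CC4:2 none of the 11 was called (1 at an unadjusted p under 0.05, 0 by DESeq2 and 0 by limma-voom).

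**Figure D3:**
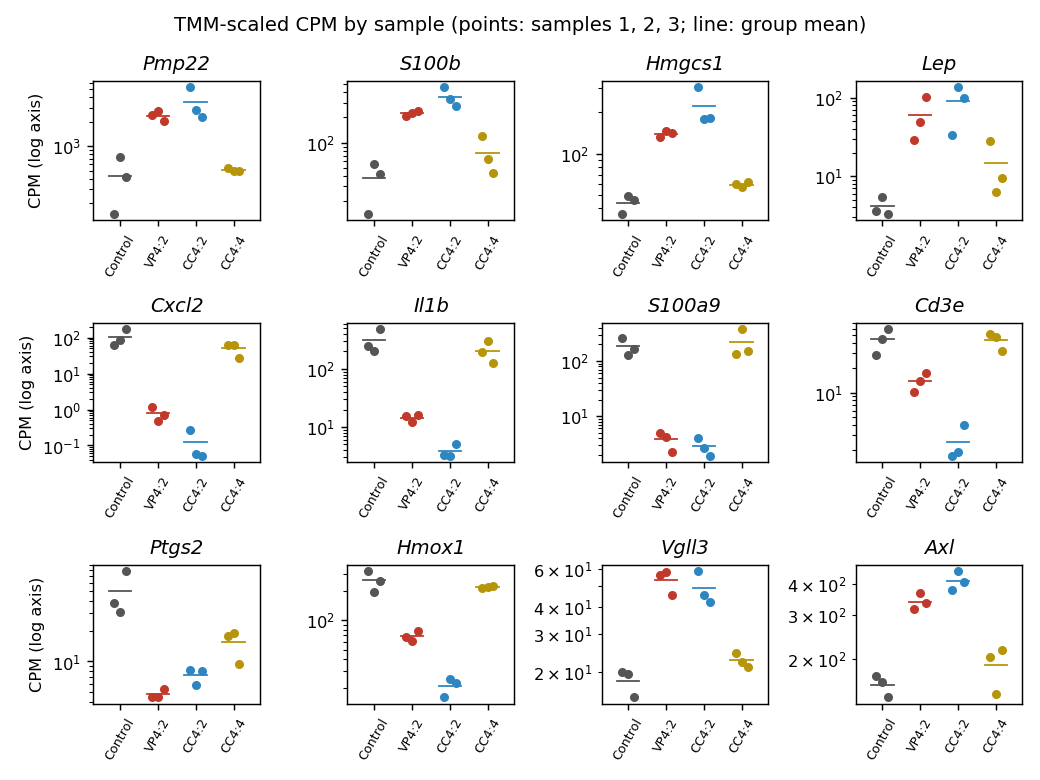
TMM-scaled CPM on a log axis for 12 genes, with 1 point for each of the 3 samples of a group, in order of sample number, and a line at the group mean. VP4:2 points lie above Control for Pmp22, S100b, Hmgcs1, Lep, Vgll3 and Axl and below Control for Cxcl2, Il1b, S100a9, Cd3e, Ptgs2 and Hmox1, with no overlap in any of the 12. For Cd3e and Hmox1 the VP4:2 points lie between Control and CC4:2.

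Most chemokines and cytokines, among them those that recruit and activate these cells, were called lower as well. Of 24 tested genes 15 were called lower and 1 higher, with a median log2 fold change of -2.06. The promoters of Cxcl1 and Cxcl6, the members of the list with an exact kappaB motif, the binding sequence of NF-kappaB, are shown because both genes fell. They come from RefSeq on the GRCr8 rat assembly, from 250 bases before to 50 bases after the start, as given on the minus strand of chr14:17479272-17479571 and chr14:17596368-17596667, while the build used by the authors is not given in the sources used here. Capitals mark the motif, which begins 84 bases before the start of Cxcl1 and 88 before that of Cxcl6.
Cxcl1: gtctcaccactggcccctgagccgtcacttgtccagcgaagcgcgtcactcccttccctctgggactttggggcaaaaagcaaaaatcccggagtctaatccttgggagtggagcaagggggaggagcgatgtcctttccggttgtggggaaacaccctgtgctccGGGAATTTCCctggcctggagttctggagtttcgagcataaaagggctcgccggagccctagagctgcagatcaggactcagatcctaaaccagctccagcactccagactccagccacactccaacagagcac
Cxcl6: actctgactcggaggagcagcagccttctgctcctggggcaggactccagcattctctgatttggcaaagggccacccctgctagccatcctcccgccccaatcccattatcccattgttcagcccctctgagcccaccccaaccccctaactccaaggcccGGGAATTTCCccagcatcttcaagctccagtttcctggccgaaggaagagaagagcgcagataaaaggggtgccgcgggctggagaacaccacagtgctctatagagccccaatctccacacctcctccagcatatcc
The letters in capitals were searched as an exact match on both strands. They occurred in 2 of the 14 promoters matched for the list (14.3%) and in 16 of the 11204 promoters of tested genes (0.143%). By direction they occurred in 7 of 1036 promoters of genes called lower (0.676%) and in 1 of 1090 of genes called higher (0.0917%). Of all 27457 promoters in the table, 22 held them (0.0801%). A match is a description of these letters and does not show binding. Cxcl1, a neutrophil chemokine, had 29.1, 9.76 and 26.01 CPM in Control and 0.932, 0.752 and 0.487 CPM in VP4:2, a log2 fold change of -4.89 (SE 0.49, adjusted p = 0.0009). Cxcl6, of the same family, had 254, 58.6 and 105 CPM in Control and 7.13, 10.04 and 4.65 CPM in VP4:2, a log2 fold change of -4.26 (SE 0.55, adjusted p = 0.0022). Control sample 2 was the lowest of the Control samples for both and was still well above every VP4:2 sample.

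Other members of the list fell by as much. Cxcl2, a further neutrophil chemokine, had 61.9, 87.8 and 172 CPM in Control and 1.15, 0.483 and 0.703 CPM in VP4:2, a log2 fold change of -7.09 (SE 0.58, adjusted p = 0.0009). Cxcl3 had 28.9, 22.3 and 25.5 CPM in Control and 0.603, 0.107 and 0.9197 CPM in VP4:2, a log2 fold change of -5.54 (SE 0.54, adjusted p = 0.0009). Il1b, interleukin 1 beta, had 253, 202 and 484 CPM in Control and 15.2, 12.03 and 15.8 CPM in VP4:2, a log2 fold change of -4.44 (SE 0.42, adjusted p = 0.0009). No Control sample came near the VP4:2 range in these. Tnf, tumour necrosis factor, had 5.29, 7.18 and 8.804 CPM in Control and 1.75, 1.504 and 1.79 CPM in VP4:2, a log2 fold change of -2.07 (SE 0.26, adjusted p = 0.0019). Il33, an alarmin stored in the nuclei of barrier and stromal cells, was the 1 member called higher, with 238, 175 and 148 CPM in Control and 371, 325 and 369 CPM in VP4:2 and a log2 fold change of 0.92 (SE 0.20, adjusted p = 0.013). Of the uncalled members, Cxcl12, a stromal chemokine, had 836, 646 and 601 CPM in Control and 419, 556 and 675 CPM in VP4:2, and the growth factor Csf1 had 108, 115 and 128 CPM in Control and 164, 145 and 156 CPM in VP4:2. Against CC4:2, where 5.23% of all genes were called higher and 0.999% lower, 13 of the 24 were called higher in VP4:2 and none lower. Il1b had 3.34, 3.21 and 5.06 CPM in CC4:2, and its log2 fold change of VP4:2 against CC4:2 was 1.89 (SE 0.39, adjusted p = 0.017). Cxcl6 had 0.371, 0.169 and 0.261 CPM in CC4:2, for a log2 fold change of 4.72 (SE 0.69, adjusted p = 0.0024). VP4:2 thus lay between CC4:2 and Control for both genes.

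Genes that sense danger signals or regulate the response to them were called lower or not called. Of 18 tested genes of the inflammasome and Toll-like receptors, 7 were called lower and none higher against Control, or 7 and 1 without Control replicate 1, with a median log2 fold change of -0.62, and 9 were called higher and none lower against CC4:2. Tlr2, a receptor for bacterial lipoproteins and some products of damaged tissue, had 160.4, 147 and 172 CPM in Control, 57.2, 47.8 and 58.9 CPM in VP4:2 and 18.3, 15.2 and 21.2 CPM in CC4:2. The log2 fold change of Tlr2 was -1.55 (SE 0.18, adjusted p = 0.0014) against Control and 1.58 (SE 0.18, adjusted p = 0.00056) against CC4:2. Nfkbia, the inhibitor of NF-kappaB that NF-kappaB itself induces, had 147, 168 and 275 CPM in Control and 61.4, 53.1 and 57.99 CPM in VP4:2, a log2 fold change of -1.77 (SE 0.28, adjusted p = 0.0048). Il1r2, the decoy receptor for interleukin 1, had 66.2, 32.3 and 63.6 CPM in Control and 3.62, 5.32 and 5.09 CPM in VP4:2, a log2 fold change of -3.53 (SE 0.48, adjusted p = 0.0025). The groups did not overlap for any of the 3. Il1rn, the interleukin 1 receptor antagonist, was not called against Control, with 166, 195 and 421 CPM in Control and 166, 129 and 210.1 CPM in VP4:2, but it was higher than in CC4:2, which had 13.4, 9.19 and 8.72 CPM, by a log2 fold change of 4.01 (SE 0.44, adjusted p = 0.00053).

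Genes tied to pain were mostly not called against Control, and those called were lower. Of 20 tested mediators and nociceptor channels 5 were called lower and none higher against Control, with a median log2 fold change of -0.74. Il1b, Tnf and Cxcl1, described above, are 3 of the 5. Against CC4:2, where 5.23% of all genes were called higher and 0.999% lower, 5 of the 20 were higher and 1 lower. The median log2 fold change against CC4:2 was 0.32. Ptgs2, the inducible cyclooxygenase and the target of common anti-inflammatory drugs, had 38.1, 31.1 and 78.7 CPM in Control and 4.44, 4.404 and 5.36 CPM in VP4:2, a log2 fold change of -3.38 (SE 0.38, adjusted p = 0.0014). Il6, interleukin 6, had 23.2, 7.11 and 14.3 CPM in Control and 2.69, 1.61 and 1.89 CPM in VP4:2, a log2 fold change of -2.85 (SE 0.50, adjusted p = 0.0065). In both the lowest Control sample was above the highest VP4:2 sample. Ccl2, a monocyte chemokine that also sensitizes neurons, was not called, with 82.6, 60.2 and 74.2 CPM in Control and 49.8, 38.8 and 56.1 CPM in VP4:2. Its level in CC4:2 was 7.36, 3.72 and 10.2 CPM, and VP4:2 was higher than CC4:2 by a log2 fold change of 2.76 (SE 0.31, adjusted p = 0.00056). Among 16 genes of prostaglandin synthesis and reception 3 were called higher and 2 lower against Control, where 9.3% of all genes were higher and 9.57% lower. Without Control replicate 1 the counts were 4 and 5. Of these 16, 2 were called higher and none lower against CC4:2. Ptgds, prostaglandin D synthase, was one of the higher genes, with 0.112, 0.234 and 0.323 CPM in Control and 1.59, 1.67 and 1.24 CPM in VP4:2 and a log2 fold change of 2.76 (SE 0.52, adjusted p = 0.0078).

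Most lymphocyte genes were called lower. Of 19 tested T and natural killer cell genes 14 were called lower and none higher, with a median log2 fold change of -1.80, and of 15 B and plasma cell genes 12 were called lower and none higher, with a median of -2.75. Cd3e, a chain of the T cell receptor complex, had 29.1, 45.6 and 59.4 CPM in Control and 10.2, 13.6 and 17.1 CPM in VP4:2, a log2 fold change of -1.71 (SE 0.36, adjusted p = 0.011). Cd8a, the coreceptor of cytotoxic T cells, had 89.2, 58.95 and 52.9 CPM in Control and 11.3, 12.2 and 15.5 CPM in VP4:2, a log2 fold change of -2.37 (SE 0.41, adjusted p = 0.0061). Ncr1, a receptor of natural killer cells, had 6.58, 6.32 and 14.2 CPM in Control and 1.48, 0.967 and 0.974 CPM in VP4:2, a log2 fold change of -2.98 (SE 0.57, adjusted p = 0.0081). Every Control sample exceeded every VP4:2 sample in these. Cd79a, a chain of the B cell receptor, had 50.05, 222 and 237 CPM in Control and 9.92, 32.1 and 19.1 CPM in VP4:2, a log2 fold change of -3.05 (SE 0.63, adjusted p = 0.011). Prdm1, the factor that turns B cells into plasma cells, had 28.7, 67.8 and 76.2 CPM in Control and 14.8, 12.998 and 14.4 CPM in VP4:2, a log2 fold change of -2.03 (SE 0.33, adjusted p = 0.0051). Control sample 1 was the lowest Control sample for both and above all VP4:2 samples.

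The B cell difference could also be read from immunoglobulin transcripts. The 7 immunoglobulin symbols in the table took 1.05%, 4.99% and 5.94% of all counts in the Control samples and 0.0725%, 0.882% and 0.453% in the VP4:2 samples. The groups did not overlap, and the exact two-sided permutation test gave p = 0.1, the smallest that 3 against 3 samples allow. In CC4:2 the share was 0.00247% to 0.0455%, below every VP4:2 sample. Cd3e, with 1.69, 1.86 and 3.97 CPM in CC4:2, was higher in VP4:2 than in CC4:2 by a log2 fold change of 2.44 (SE 0.38, adjusted p = 0.0035). In all, 7 of 19 T and natural killer cell genes and 3 of 15 B and plasma cell genes were called higher than in CC4:2, and none lower.

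**Figure D4:**
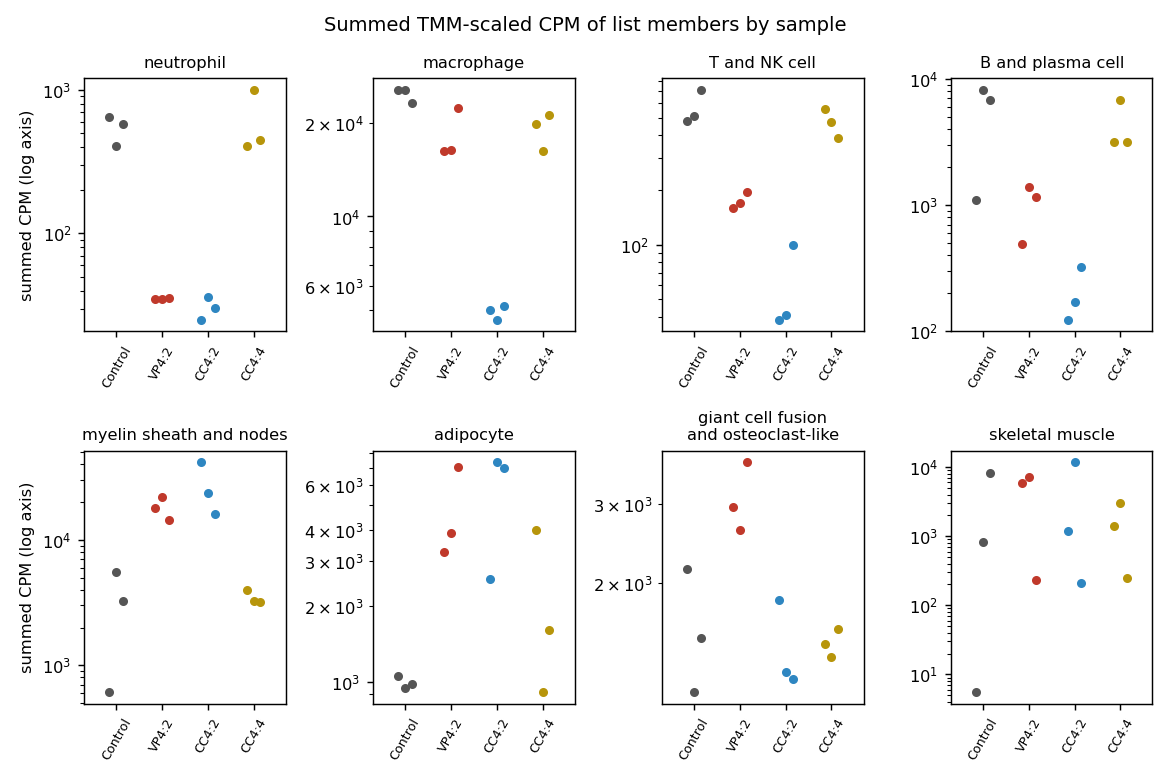
Summed TMM-scaled CPM of each list's tested members on a log axis, with 1 point for each of the 3 samples of a group, in order of sample number. Neutrophil sums in VP4:2 lie with those of CC4:2, T cell sums lie between Control and CC4:2, B cell sums overlap with Control sample 1 and lie above CC4:2, and macrophage sums lie below Control by less than they lie above CC4:2. Apoe alone holds 10754 to 14059 CPM of the macrophage sums in Control and 3711 to 4223 CPM of those in VP4:2. Skeletal muscle sums vary within every group.

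Most macrophage genes were not called against Control. Of 22 tested macrophage genes 4 were called lower and 1 higher against Control, with a median log2 fold change of -0.10 against -0.04 over all genes, and without Control replicate 1 the counts were 4 lower and 3 higher. The list summed to 25328, 25435 and 23120.5 CPM in Control, 16191, 16304 and 22270.5 CPM in VP4:2 and 5012, 4665 and 5181 CPM in CC4:2. Apoe alone made up 14059, 10760.0 and 10754 CPM of the Control sums and 4223, 3711 and 4065 CPM of the VP4:2 sums. The sums thus follow Apoe in large part. Against CC4:2, 16 of the 22 were called higher and none lower, with a median of 1.68. Csf1r, the receptor that macrophages need to survive, had 397, 512 and 433 CPM in Control and 445, 523 and 573 CPM in VP4:2, and Cd68, a lysosomal marker, had 279, 223 and 302 CPM in Control and 221, 183 and 237 CPM in VP4:2. The groups overlapped in both. Aif1, a cytoskeletal marker, had 157, 86.3 and 126 CPM in Control and 82.9, 61.6 and 94.2 CPM in VP4:2. Gpnmb, a glycoprotein of lipid-laden macrophages, had 2274, 1698 and 2267 CPM in Control, 3125, 2309.9 and 3319.5 CPM in VP4:2 and 438, 327 and 301 CPM in CC4:2, and it was not called against Control, at a log2 fold change of 0.49 (SE 0.22, adjusted p = 0.15). Against CC4:2 its log2 fold change was 3.04 (SE 0.24, adjusted p = 0.00012).

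The 4 macrophage genes called lower against Control were Nos2, Apoe, Arg1 and Adgre1. Adgre1, the F4/80 antigen and a general macrophage marker, had 307, 661 and 303 CPM in Control and 138, 161 and 163 CPM in VP4:2, a log2 fold change of -1.46 (SE 0.36, adjusted p = 0.021), a call lost for Adgre1 without Control replicate 2, VP4:2 replicate 1, VP4:2 replicate 2 or VP4:2 replicate 3 (adjusted p 0.012 to 0.078 over the 6 single omissions). Nos2, the inducible nitric oxide synthase, had 158, 276 and 708 CPM in Control and 5.43, 8.86 and 3.03 CPM in VP4:2, a log2 fold change of -6.04 (SE 0.80, adjusted p = 0.0023). Acod1, which makes the metabolite itaconate in activated macrophages and is outside this list, was among the 12 largest falls of all genes, with 29.8, 238 and 287 CPM in Control and 4.001, 1.45 and 2.87 CPM in VP4:2 and a log2 fold change of -6.06 (SE 0.84, adjusted p = 0.0029). Apoe, the apolipoprotein that carries lipid from debris, had 14059, 10760.0 and 10754 CPM in Control and 4223, 3711 and 4065 CPM in VP4:2, a log2 fold change of -1.57 (SE 0.22, adjusted p = 0.0029). All Control samples were above all VP4:2 samples. Arg1, arginase 1, which competes with nitric oxide synthesis, had 365, 70.2 and 138 CPM in Control and 25.7, 70.7 and 29.1 CPM in VP4:2, a log2 fold change of -2.19 (SE 0.56, adjusted p = 0.024), and Control sample 2 lay just below VP4:2 sample 2. Its call was lost for Arg1 without Control replicate 1, VP4:2 replicate 1 or VP4:2 replicate 3 (adjusted p 0.011 to 0.089 over the 6 single omissions), with log2 fold changes from -2.80 to -1.31 as single libraries were left out. Hmox1, haem oxygenase 1, which is also outside this list, was lower as well, from 323, 197 and 256 CPM in Control to 67.96, 60.6 and 78.4 CPM in VP4:2, a log2 fold change of -1.91 (SE 0.21, adjusted p = 0.0011), and remained above the 16.04, 24.9 and 22.5 CPM of CC4:2, with a log2 fold change of 1.71 (SE 0.21, adjusted p = 0.001). Of 14 NRF2 and haem response genes, 2 were called lower and none higher against Control, and 4 higher and none lower against CC4:2.

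Some genes of fused phagocytes were called higher in VP4:2 against Control and against CC4:2. The 17 genes of this list, which mark multinucleated giant cells and osteoclasts, were chosen after values were seen, so their counts describe the samples and support nothing. Of 16 tested, 7 were called higher, 1 lower and 8 not called against Control, 10 were called higher and none lower against CC4:2, and 2 were called higher and 10 lower in CC4:2 against Control, where 43.5% of all genes were called, 20.3% higher and 23.2% lower. Ocstamp, a membrane protein needed for fusion of osteoclast precursors, had 2.02, 1.56 and 2.18 CPM in Control, 8.28, 19.8 and 19.8 CPM in VP4:2 and 0.847, 0.338 and 0.679 CPM in CC4:2. Its log2 fold change was 3.05 (SE 0.66, adjusted p = 0.012) against Control and 4.66 (SE 0.72, adjusted p = 0.0034) against CC4:2. Dcstamp, its partner in cell fusion, had 7.704, 1.95 and 4.77 CPM in Control, 16.9, 28.3 and 39.01 CPM in VP4:2 and 2.01, 0.395 and 0.574 CPM in CC4:2. The VP4:2 samples were the 3 highest of the 9 for both. For Dcstamp the log2 fold change was 2.53 (SE 0.58, adjusted p = 0.015) against Control, a call lost for Dcstamp without Control replicate 3 or VP4:2 replicate 3 (adjusted p 0.008 to 0.052 over the 6 single omissions), and 4.80 (SE 0.65, adjusted p = 0.0016) against CC4:2. Tm4sf19, a tetraspan membrane protein, had 21.8, 13.1 and 25.04 CPM in Control, 112, 81.9 and 155 CPM in VP4:2 and 7.94, 3.16 and 3.65 CPM in CC4:2. Its log2 fold change was 2.54 (SE 0.50, adjusted p = 0.0091) against Control and 4.56 (SE 0.55, adjusted p = 0.00096) against CC4:2. Atp6v0d2, a subunit of the proton pump, had 13.9, 4.53 and 13.004 CPM in Control and 42.5, 28.4 and 47.3 CPM in VP4:2, a log2 fold change of 1.90 (SE 0.52, adjusted p = 0.029), a call lost for Atp6v0d2 without Control replicate 2, Control replicate 3, VP4:2 replicate 1, VP4:2 replicate 2 or VP4:2 replicate 3 (adjusted p 0.025 to 0.082 over the 6 single omissions). Ctsk, the collagen-cutting cathepsin K of osteoclasts, was not called, with 779, 151 and 335 CPM in Control and 684, 691 and 1041 CPM in VP4:2, but was called without Control replicate 1 (adjusted p 0.0062 to 0.38 over the 6 single omissions). Oscar, the osteoclast-associated receptor, was the member called lower, with 13.3, 26.3 and 27.5 CPM in Control and 3.78, 6.39 and 5.302 CPM in VP4:2 and a log2 fold change of -2.11 (SE 0.58, adjusted p = 0.03), a call lost for Oscar without Control replicate 2, Control replicate 3, VP4:2 replicate 1, VP4:2 replicate 2 or VP4:2 replicate 3 (adjusted p 0.015 to 0.11 over the 6 single omissions). Acp5, the acid phosphatase used to stain osteoclasts, was not called either, with 92.4, 42.2 and 77.9 CPM in Control and 43.3, 46.2 and 75.04 CPM in VP4:2.

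**Figure D5:**
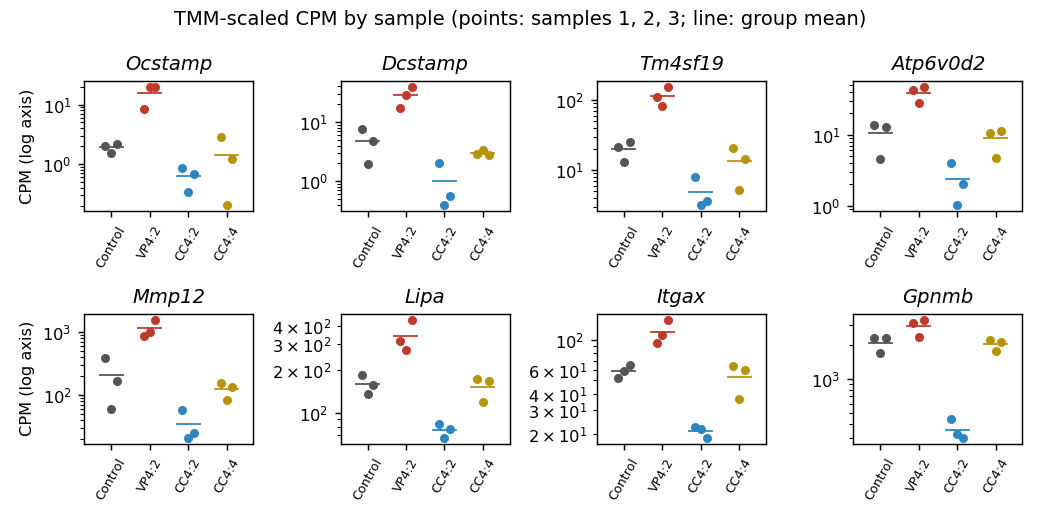
TMM-scaled CPM on a log axis for 8 phagocyte genes, with 1 point for each of the 3 samples of a group, in order of sample number, and a line at the group mean. The 8 genes were picked with values known, so what the panels share describes these genes only. Oscar, called lower against Control, and Ctsk and Acp5, not called, are not drawn. In every panel the 3 VP4:2 samples are the highest of the 12, and CC4:2 has the lowest group mean in each. For Gpnmb the lowest VP4:2 sample, at 2309.9 CPM, lies just above the highest Control sample, at 2274 CPM.

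Outside that list, the genes called against Control whose fold change had the opposite sign in CC4:2 against Control, also called, were led by the following by p-value. These comparisons share the Control samples, so each gene is given by its level in all 3 groups. Lipa, the lysosomal acid lipase that frees cholesterol from esters, had 183, 136 and 156 CPM in Control, 315, 274 and 446 CPM in VP4:2 and 83.3, 66.7 and 77.5 CPM in CC4:2. This gave Lipa a log2 fold change of 1.12 (SE 0.22, adjusted p = 0.0082) against Control and 2.19 (SE 0.22, adjusted p = 0.00043) against CC4:2. Mcoln3, an endolysosomal cation channel, had 5.29, 4.997 and 8.64 CPM in Control, 20.9, 15.4 and 20.7 CPM in VP4:2 and 2.65, 2.37 and 2.402 CPM in CC4:2, with log2 fold changes of 1.59 (SE 0.29, adjusted p = 0.0072) and 2.94 (SE 0.31, adjusted p = 0.00046). Atp1b1, a subunit of the sodium pump, had 87.9, 80.3 and 102 CPM in Control, 287, 210.1 and 371 CPM in VP4:2 and 45.8, 28.5 and 29.9 CPM in CC4:2, with log2 fold changes of 1.68 (SE 0.31, adjusted p = 0.0074) and 3.06 (SE 0.33, adjusted p = 0.00049). In each, all CC4:2 samples were below all Control samples. That VP4:2 and Control did not overlap was a condition for choosing these genes. Cd180, a Toll-like protein of B cells and macrophages, had 21.3, 20.4 and 26.01 CPM in Control, 47.7, 36.2 and 56.2 CPM in VP4:2 and 8.1004, 7.89 and 12.3 CPM in CC4:2, with log2 fold changes of 1.05 (SE 0.21, adjusted p = 0.0089) and 2.31 (SE 0.21, adjusted p = 0.00029). Matk, Rnf128 and Cldn4 completed the set, with log2 fold changes against Control of 1.18, 1.36 and 1.85 and against CC4:2 of 2.94, 3.09 and 3.27. Itgax, the integrin CD11c of dendritic cells and some macrophages, had 52.2, 58.9 and 65.02 CPM in Control and 94.3, 108 and 141 CPM in VP4:2, a log2 fold change of 0.96 (SE 0.21, adjusted p = 0.013). Of 18 lysosome and phagocyte lipid genes 3 were called higher and 2 lower against Control, and 10 higher and none lower against CC4:2. The lower ones were the cholesterol exporters Abca1 and Abcg1. Abca1 had 213, 280.1 and 267 CPM in Control and 160.0, 203 and 144 CPM in VP4:2, a log2 fold change of -0.59 (SE 0.18, adjusted p = 0.043), a call lost for Abca1 without Control replicate 2, Control replicate 3, VP4:2 replicate 1 or VP4:2 replicate 3 (adjusted p 0.019 to 0.14 over the 6 single omissions). Abcg1 had 171, 210.4 and 228 CPM in Control and 98.9, 115 and 118 CPM in VP4:2, a log2 fold change of -0.88 (SE 0.19, adjusted p = 0.012), a call lost for Abcg1 without Control replicate 3 or VP4:2 replicate 1 (adjusted p 0.0071 to 0.059 over the 6 single omissions). The cathepsins Ctsb and Ctsd were not called against Control, with 3869.9, 2599 and 2833 CPM in Control and 2086, 1789 and 2113 CPM in VP4:2 for the first and 1075, 869 and 924 and 664, 603 and 733 CPM for the other, although Ctsb was called lower without Control replicate 2 (adjusted p 0.05 to 0.19 over the 6 single omissions).

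Matrix proteases split into both directions. Of 21 tested proteases and inhibitors 3 were called higher and 5 lower against Control, where 9.3% of all genes were higher and 9.57% lower. Without Control replicate 1 the counts were 7 and 3. Of these 21, 5 were called higher and none lower against CC4:2, where 5.23% of all genes were higher and 0.999% lower. The promoters of Mmp12 and Mmp13 are shown because these neighbours on chromosome 8 moved in opposite directions and both hold the AP-1 motif, the binding sequence of Fos and Jun proteins. They are taken from RefSeq GRCr8 on the plus strand, at chr8:12866402-12866701 and chr8:12782579-12782878. Capitals mark the motif, TGACTCA or its reverse complement TGAGTCA, which begins 87 bases before the start of Mmp12 and 66 before that of Mmp13.
Mmp12: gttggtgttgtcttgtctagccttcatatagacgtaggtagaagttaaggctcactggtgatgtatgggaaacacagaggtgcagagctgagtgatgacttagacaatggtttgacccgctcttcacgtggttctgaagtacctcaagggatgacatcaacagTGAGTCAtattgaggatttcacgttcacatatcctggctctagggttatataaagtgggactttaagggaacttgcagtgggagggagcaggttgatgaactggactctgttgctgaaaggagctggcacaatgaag
Mmp13: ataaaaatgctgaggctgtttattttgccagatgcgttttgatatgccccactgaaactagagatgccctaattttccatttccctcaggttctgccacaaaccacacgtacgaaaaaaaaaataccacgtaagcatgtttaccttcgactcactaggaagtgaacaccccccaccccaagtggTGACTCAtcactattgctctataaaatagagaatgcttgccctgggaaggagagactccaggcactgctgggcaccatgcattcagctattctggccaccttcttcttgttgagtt
On both strands these letters occurred in 5 of the 15 promoters matched for the list (33.3%) and in 3.53% of those of tested genes. They occurred in 5.12% of those of genes called lower, 3.49% of those of genes called higher and 4.53% of all promoters in the table. Mmp12, the elastase of macrophages, had 391, 60.04 and 167 CPM in Control, 855, 994 and 1549 CPM in VP4:2 and 58.8, 21.2 and 25.5 CPM in CC4:2. Mmp12 had a log2 fold change of 2.46 (SE 0.62, adjusted p = 0.022) against Control, a call lost for Mmp12 without Control replicate 3, VP4:2 replicate 2 or VP4:2 replicate 3 (adjusted p 0.0049 to 0.079 over the 6 single omissions), and 5.01 (SE 0.70, adjusted p = 0.0019) against CC4:2. Mmp13, a collagenase, had 1306, 91.04 and 283 CPM in Control, 45.9, 73.5 and 55.99 CPM in VP4:2 and 0.212, 0.451 and 0.522 CPM in CC4:2. Control sample 1 was the highest by far, while Control sample 2 lay just above the VP4:2 samples. Mmp13 had a log2 fold change of -3.26 (SE 0.75, adjusted p = 0.016) against Control, with -3.73 to -1.68 as single libraries were left out and the call lost for Mmp13 without VP4:2 replicate 1, VP4:2 replicate 2 or VP4:2 replicate 3 (adjusted p 0.0038 to 0.065 over the 6 single omissions). Against CC4:2 it was 7.18 (SE 0.96, adjusted p = 0.0015). Adam8, a sheddase of leukocytes, had 51.3, 31.6 and 41.999 CPM in Control and 16.2, 25.995 and 21.7 CPM in VP4:2, a log2 fold change of -0.97 (SE 0.21, adjusted p = 0.012). Mmp2 and Mmp14, proteases of stromal cells that were not called, had 2089, 604 and 499.6 and 1359, 362 and 479 CPM in Control and 716, 753 and 689 and 397, 445 and 369.7 CPM in VP4:2, with Control sample 1 the highest of the 6 for both.

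Genes of the Hippo pathway and the targets of YAP were examined because verteporfin acts on this pathway. Of 21 tested Hippo genes 3 were called higher and 1 lower against Control, and of 22 targets 4 were called higher and 2 lower. Of all genes 9.3% were called higher and 9.57% lower. Without Control replicate 1 the list counts were 13 and 1 for the pathway and 11 and 3 for the targets. Calls over all 15975 genes then rose as well, to 2103 higher and 2191 lower. The list medians were 0.48 and 0.49. Yap1 had 143, 83.3 and 79.2 CPM in Control and 161, 152 and 144 CPM in VP4:2, a log2 fold change of 0.58 (SE 0.20, adjusted p = 0.071). All VP4:2 samples were above Control, but Control sample 1 lay close to them, and Yap1 was called without Control replicate 1 (adjusted p 0.0014 to 0.18 over the 6 single omissions). Wwtr1, which encodes TAZ, had 110.5, 63.6 and 49.7 CPM in Control and 158, 156 and 144 CPM in VP4:2, a log2 fold change of 1.03 (SE 0.24, adjusted p = 0.017), a call lost for Wwtr1 without VP4:2 replicate 1 or VP4:2 replicate 2 (adjusted p 0.00058 to 0.055 over the 6 single omissions). Tead1, a TEAD factor, had 10.5, 11.5 and 9.13 CPM in Control and 20.2, 22.99 and 15.9 CPM in VP4:2, a log2 fold change of 0.92 (SE 0.17, adjusted p = 0.007). Vgll3, a cofactor that also binds TEAD proteins, had 19.96, 19.4 and 15.2 CPM in Control and 56.2, 57.95 and 45.6 CPM in VP4:2, a log2 fold change of 1.55 (SE 0.17, adjusted p = 0.0011). The VP4:2 samples lay above the Control samples in each. Against CC4:2 none of the 21 was called (8 at an unadjusted p under 0.05, 4 by DESeq2 and 2 by limma-voom), and the log2 fold change of Yap1 was -0.30 (SE 0.20, adjusted p = 0.41).

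The most widely used YAP target genes were not among the called ones. The promoter of Ccn2 is shown because it holds the TEAD motif 3 times. It is taken from RefSeq GRCr8, minus strand, chr1:22624565-22624864, and capitals mark the motif, which begins 166, 101 and 92 bases before the start.
Ccn2: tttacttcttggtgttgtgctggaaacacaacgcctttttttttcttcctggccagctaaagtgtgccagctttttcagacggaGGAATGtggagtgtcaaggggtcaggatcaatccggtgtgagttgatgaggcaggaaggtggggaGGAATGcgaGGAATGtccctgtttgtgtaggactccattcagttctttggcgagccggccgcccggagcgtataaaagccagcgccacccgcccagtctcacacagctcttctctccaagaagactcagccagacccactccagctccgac
The letters GGAATG, searched on both strands, occurred in 6 of the 15 promoters matched for the target list (40.0%), in 11.2% of those of tested genes and in 13.9% of all in the table. Ccn2, connective tissue growth factor, had 339, 100.3 and 121 CPM in Control and 456, 247 and 182 CPM in VP4:2, a log2 fold change of 0.66 (SE 0.46, adjusted p = 0.34). Ccn1, a matrix protein of the same family, had 178, 55.98 and 87.4 CPM in Control and 225, 52.5 and 102 CPM in VP4:2, a log2 fold change of 0.24 (SE 0.53, adjusted p = 0.79). Ankrd1, a muscle and stress protein, had 0.4499, 2.97 and 17.4 CPM in Control and 7.02, 6.499 and 1.24 CPM in VP4:2, a log2 fold change of -0.48 (SE 0.99, adjusted p = 0.77). The groups overlapped in all 3, and Ccn2 was called without Control replicate 1 (adjusted p 0.022 to 0.81 over the 6 single omissions). The 3 samples highest in Ankrd1, Control sample 3 and VP4:2 samples 1 and 2, were also the 3 highest in summed skeletal muscle genes, and the part of muscle in its values was not tested. Axl, a receptor tyrosine kinase and a target that was called, had 172, 163 and 141 CPM in Control and 318, 368 and 335 CPM in VP4:2, a log2 fold change of 1.10 (SE 0.17, adjusted p = 0.0046). Nuak2, a kinase, was called lower, with 25.6, 20.5 and 23.8 CPM in Control and 11.7, 12.5 and 9.47 CPM in VP4:2 and a log2 fold change of -1.06 (SE 0.17, adjusted p = 0.005). Against CC4:2 the log2 fold change was 0.95 (SE 0.46, adjusted p = 0.26) for Ccn2, 0.58 (SE 0.54, adjusted p = 0.55) for Ccn1 and -0.28 (SE 0.17, adjusted p = 0.37) for Axl, and of the 22 targets 1 was called lower and none higher.

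Most adhesion genes that link the matrix to the cell skeleton were not called. Of 25 tested genes 4 were called higher, against 9.3% of all genes, and none lower, or 11 and none without Control replicate 1, with a median log2 fold change of 0.36. Vcl, vinculin, had 129.6, 110.4 and 94.4 CPM in Control and 269.9, 242 and 193 CPM in VP4:2, a log2 fold change of 1.08 (SE 0.18, adjusted p = 0.006). Itga1, a collagen-binding integrin chain, had 27.9, 17.6 and 17.1 CPM in Control and 67.3, 50.1 and 46.1 CPM in VP4:2, a log2 fold change of 1.38 (SE 0.21, adjusted p = 0.0045). Rock2, a kinase that drives contraction, had 135, 116 and 115 CPM in Control and 205, 172 and 209 CPM in VP4:2, a log2 fold change of 0.68 (SE 0.14, adjusted p = 0.012). The groups did not overlap in these. Of 27 genes of the fibrous matrix 1 was called, or 4 without Control replicate 1, all higher. That gene was Thbs1, the matricellular protein thrombospondin 1, with 448, 168 and 224 CPM in Control and 1628, 943 and 707 CPM in VP4:2 and a log2 fold change of 1.96 (SE 0.42, adjusted p = 0.012). It was also higher than in CC4:2, which had 350.2, 329 and 315 CPM, with a log2 fold change of 1.72 (SE 0.42, adjusted p = 0.036). Col1a1 and Col3a1, the main chains of scar collagen, were not called, with 29432, 6121 and 6442 and 20468, 5056 and 4236 CPM in Control and 8433, 9433 and 6007 and 7283, 8347 and 7408 CPM in VP4:2. Control sample 1 was far above the other 5 samples for both collagens.

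Some cell cycle genes were called lower, and vessel genes gave few calls. Of 25 cell cycle genes 5 were called lower, against 9.57% of all genes, and none higher, or 4 and 1 without Control replicate 1. At an unadjusted p under 0.05 there were 12, with 9 called by DESeq2 and 4 by limma-voom. The median log2 fold change was -0.60, and 1 of the 25 was above 0. In VP4:2 against CC4:2, 6 were called higher and none lower, and against CC4:4, 13 were called lower and none higher. Rrm2, a subunit of ribonucleotide reductase, had 29.2, 46.9 and 62.4 CPM in Control and 16.3, 14.1 and 16.9 CPM in VP4:2, a log2 fold change of -1.55 (SE 0.28, adjusted p = 0.0072). The proliferation marker Mki67 was not called, with 64.5, 75.2 and 103 CPM in Control and 48.3, 46.2 and 57.1 CPM in VP4:2, although no VP4:2 sample reached the lowest Control sample. Of 15 endothelial genes 1 was called, higher, or 4 without Control replicate 1. Pecam1, a junction protein of endothelium, had 358, 208 and 169.9 CPM in Control and 223, 277 and 273 CPM in VP4:2, a log2 fold change of 0.07 (SE 0.31, adjusted p = 0.89). Of 17 complement genes 2 were called lower, against 9.57% of all genes, and none higher against Control. Without Control replicate 1 the counts were 2 and 2. Of these 17, 3 were called higher and none lower against CC4:2. C3, the central component, had 262, 1572 and 973 CPM in Control and 71.4, 109 and 52.1 CPM in VP4:2, a log2 fold change of -3.59 (SE 0.57, adjusted p = 0.0047). Cfi, the protease that inactivates it, had 29.97, 19.4 and 21.2 CPM in Control and 4.88, 5.102 and 4.06 CPM in VP4:2, a log2 fold change of -2.33 (SE 0.22, adjusted p = 0.0009). All Control samples were above all VP4:2 samples in both.

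Beyond the lists, the largest rises against Control with at least 1 CPM on average included genes best known from neurons. Plppr4, a phospholipid phosphatase-related membrane protein of neurons, had 0.112, 0.0781 and 0.323 CPM in Control, 2.36, 1.93 and 3.03 CPM in VP4:2 and 0, 0.0564 and 0.104 CPM in CC4:2, with a log2 fold change of 3.82 (SE 0.66, adjusted p = 0.0061) against Control and, from 3 counts in CC4:2, a ratio to CC4:2 of 45.3 with a 95% counting interval of 15.2 to 223. Pcdh8, a protocadherin, had 0.4499, 0.0781 and 0.323 CPM in Control, 3.78, 6.61 and 8.22 CPM in VP4:2 and 0.90004, 1.07 and 0.4699 CPM in CC4:2, with log2 fold changes of 4.37 (SE 0.65, adjusted p = 0.0038) and 2.92 (SE 0.57, adjusted p = 0.013). Both were low in absolute level and higher in every VP4:2 sample than in any CC4:2 sample. Lack of overlap with Control was a condition for choosing the largest rises. Of 9 tested neuronal transcripts none was called against Control, or 1 higher without Control replicate 1 (2 at an unadjusted p under 0.05, 2 by DESeq2 and 0 by limma-voom). Atf3, a stress-induced transcription factor of injured nerve cells, was likewise higher than in both groups, with 27.4, 23.2 and 36.3 CPM in Control, 91.7, 65.4 and 87.5 CPM in VP4:2 and 52.3, 29.9999 and 25.3 CPM in CC4:2 and log2 fold changes of 1.49 (SE 0.29, adjusted p = 0.0081) and 1.18 (SE 0.28, adjusted p = 0.034).

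The largest falls were immune genes and a few genes nearly silent in VP4:2. Prok2, a secreted chemoattractant that neutrophils make and that sensitizes pain neurons, had 10.4, 7.18 and 10.6 CPM in Control and 0.0548, 0.0537 and 0.108 CPM in VP4:2, from 4 counts in all, a log2 fold change of -6.88 (SE 0.85, adjusted p = 0.0029). Nlrp12, a sensor protein of myeloid cells, had 8.27, 4.37 and 5.09 CPM in Control and 0.164, 0.0537 and 0 CPM in VP4:2, a log2 fold change of -6.22 (SE 0.74, adjusted p = 0.0016). Csf3, the growth factor for neutrophils, had 109 counts in the Control samples and 1 count in the VP4:2 samples, a ratio of VP4:2 to Control of 0.00712 with a 95% counting interval of 0.000179 to 0.0405 that covers counting error only. Cdh10, a cadherin, had 222 counts in Control and 1 in VP4:2, a ratio of 0.0035 with an interval of 8.81e-05 to 0.0197. The Control samples of both were above all VP4:2 samples, as the choice of the largest falls required.

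VP4:2 differed from CC4:2 at fewer genes than from Control, 979 (6.23%), of which 822 (84.0%) were higher in VP4:2. The share that was higher was 70.9% by DESeq2, 75.6% by limma-voom, 70.9% with only the 6 samples of these groups in the fit and 96.0% in the NovaSeq samples alone. In the NovaSeq samples the order of the counts was reversed, with 202 genes called against CC4:2 and 19 against Control. Among genes called against both Control and CC4:2, those lowest against CC4:2 lay between the groups. Igfbp6, a binding protein for insulin-like growth factor 2, had 96.2, 162 and 115 CPM in Control, 377, 340.1 and 290.4 CPM in VP4:2 and 1090.0, 792 and 729 CPM in CC4:2, with log2 fold changes of 1.43 (SE 0.26, adjusted p = 0.0072) and -1.37 (SE 0.26, adjusted p = 0.011). Col4a3, a basement membrane collagen chain, had 1.74, 2.65 and 2.42 CPM in Control, 7.07, 10.7 and 7.52 CPM in VP4:2 and 20.9, 29.04 and 18.2 CPM in CC4:2, with log2 fold changes of 1.90 (SE 0.29, adjusted p = 0.0041) and -1.43 (SE 0.27, adjusted p = 0.011). Ngef, a guanine nucleotide exchange factor of ephrin signalling, had 0.843, 1.25 and 1.21 CPM in Control, 2.85, 3.71 and 3.46 CPM in VP4:2 and 12.3, 11.4 and 7.99 CPM in CC4:2, with log2 fold changes of 1.60 (SE 0.26, adjusted p = 0.005) and -1.66 (SE 0.24, adjusted p = 0.0023). In these genes VP4:2 was above Control and below CC4:2, and it did not overlap with CC4:2. Lack of overlap with Control was a condition for choosing them. The count of 979 was 548 without CC4:2 replicate 2, 550 without VP4:2 replicate 1 and 466 without VP4:2 replicate 3.

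Against the unloaded CC4:4 conduit, VP4:2 differed at 1762 genes (11.2%), 896 higher (5.7%) and 866 lower (5.51%). Of the myelin genes 11 of 17 were called higher and none lower, of the neutrophil genes 10 of 11 were called lower and none higher, and of the macrophage genes 2 of 22 were higher and 2 lower. S100b had 119.5, 64.1 and 43.6 CPM in CC4:4, for a log2 fold change of VP4:2 against CC4:4 of 1.56 (SE 0.47, adjusted p = 0.054). Cxcl2 had 61.2, 63.6 and 27.97 CPM in CC4:4, for a log2 fold change of -6.02 (SE 0.56, adjusted p = 0.0012). The 1762 calls were 341, 389 and 737 without VP4:2 replicates 1, 2 and 3 and 1028 and 232 without CC4:4 replicates 1 and 2. VP4:2 and CC4:4 differ in gradient as well as loading, and these cannot be told apart.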

How the data were processed

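Poly(A) RNA from rat sciatic nerve stumps was sequenced as paired reads, per the labels' protocols. The authors deposited 1 table of estimated counts per gene, repeated in 12 identical files, of which 1 was used. The submitters' processing notes name HISAT2, StringTie, RSEM and DESeq2 without versions; the build and annotation are not given in the sources used here. Gene symbols came from the table, and the 4911 genes with no unique symbol kept their identifiers.

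Counts were rounded and filtered with filterByExpr by group, leaving 15712 of 30562 genes. All 12 samples entered 1 edgeR (4.0.16, R 4.3.3) quasi-likelihood fit with TMM scaling and 8 residual degrees of freedom. The p-values were adjusted by Benjamini-Hochberg over all tested genes, and a gene with an adjusted p under 0.05 was called. DESeq2 1.42.0 and limma 3.58.1 (voom) were alternatives, beside other scalings and filters, a fit of only the groups compared, a replicate block, the instrument as a covariate, NovaSeq samples alone and omission of each replicate. Levels are TMM-scaled CPM. In simulated data for VP4:2 against Control (15554 genes), 26 of 100 genes changed 2-fold and 74 of 100 changed 4-fold were recovered, with 4.76% false calls. Only those genes were changed, whereas 18.9% of genes were called in the data. Adjusted p-values depend on the share of changed genes, so these rates do not measure recovery in the data. Counting error was small beside the spread: a chi-square test of pairs of samples within a group gave 47.3 to 318 per degree of freedom.

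The members of the comparison and all gene lists were chosen with earlier results of these data known. Of 736 genes in 43 lists and 1 list added after values were seen, 680 were tested. Named were the 12 largest rises and falls with at least 1 CPM on average and no overlap, up to 5 called members of smallest p in each list's main direction, up to 2 called the other way and 2 uncalled of highest level, up to 8 genes also called against CC4:2 in each direction, up to 8 with opposite sign in CC4:2, and Yap1, Wwtr1, Tead1, Ccn1, Ccn2 and Ankrd1. Genes also called against CC4:2 and those with opposite sign had to pass the same filters on level and on overlap between VP4:2 and Control. Csf1r, Cd68 and Aif1 were markers of cell types. A few genes that the rule names are not reported here. Promoters were matched by symbol for 11204 of the tested genes. A sterol regulatory element motif was searched too. It occurred in 0 of the 14 promoters matched for the cholesterol and fatty acid list and in 0.437% of those of tested genes. The AP-1 motif occurred in 0 of the 9 promoters matched for the list of fused phagocyte genes. Lists not described in the text were counted in the same way.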

Additional observations from a re-analysis of the deposited data

How the results depend on the processing

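The 2964 calls of VP4:2 against Control became 1869 with only those 6 samples in the fit, 19 in the NovaSeq samples (2 higher, 17 lower) and 1775 at 2-fold or more, and ranged from 1166 to 4294 as single replicates were left out. The 979 calls of VP4:2 against CC4:2 became 1861 by DESeq2 and 202 in the NovaSeq samples, and ranged from 466 to 746 with single replicates left out. The 1762 calls of VP4:2 against CC4:4 became 3083 by DESeq2, 3321 with only those samples in the fit, 29 in the NovaSeq samples and 1122 at 2-fold or more, and ranged from 232 to 1175. The cause of these moves was not tested. RLE scaling gave 2982, 976 and 1786 calls. The replicate block gave 2505, 853 and 1443 calls and is reported here only as an alternative. Same-numbered Control and VP4:2 samples did not deviate together, with correlations of 0.05, 0.16 and -0.31, and not every sample correlated best with its own number. With 3 samples a group, these correlations cannot settle whether the numbers pair the samples, which the labels do not say. Of 185 named called genes 108 were called with each of the 6 libraries left out, and none of the 185 reversed under any alternative. The 1 reversal was in Uchl1, uncalled at -0.03 and called at 1.27 without Control replicate 1, with a range of -0.42 to 1.27 over single omissions. The immunoglobulin difference of -3.53 percentage points ranged from -5.00 to -2.55 over single omissions and was -3.78 with Jchain. Counts over gene lists without Control replicate 1 and in the NovaSeq samples were chosen after seeing the data; 39 and 0 of 59 non-zero list counts stayed within 1.5 times.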

Other observations

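Some gene groups that the text above did not describe gave few or no calls in VP4:2 against Control. Of 14 heat shock proteins and chaperones none was called in edgeR (2 at an unadjusted p under 0.05, 0 by DESeq2 and 0 by limma-voom) and 1 in each direction without Control replicate 1. Hspa8, a constitutive chaperone, had 1606, 1163 and 1289 CPM in Control and 1459, 1358 and 1422 CPM in VP4:2. Of 16 nuclear genes of oxidative phosphorylation 1 was called higher and 1 lower, or 1 lower alone without Control replicate 1. The lower one was Ndufa1, a small subunit of complex I, with 87.9, 80.5 and 82.5 CPM in Control and 53.99, 46.03 and 51.7 CPM in VP4:2 and a log2 fold change of -0.73 (SE 0.13, adjusted p = 0.0075). Of 17 hypoxia and glycolysis genes 2 were called in each direction, or 2 higher and 4 lower without Control replicate 1. Ndrg1, a stress-induced protein that Schwann cells also make, had 204, 412 and 274 CPM in Control and 941, 1090.4 and 859 CPM in VP4:2, a log2 fold change of 1.70 (SE 0.28, adjusted p = 0.0053). Hif1a, the oxygen-regulated transcription factor, had 576, 286 and 378 CPM in Control and 169, 164 and 181 CPM in VP4:2, a log2 fold change of -1.27 (SE 0.25, adjusted p = 0.0095). The groups were apart in all but Hspa8.

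Of 15 interferon-stimulated genes 1 was called, or 3 without Control replicate 1, all lower. That gene was Ifit3, an antiviral protein, with 108, 99.9 and 501 CPM in Control and 21.98, 15.3 and 12.3 CPM in VP4:2 and a log2 fold change of -3.84 (SE 0.81, adjusted p = 0.012). Control sample 3 was the highest of the 6 by far, and all Control samples exceeded all VP4:2 samples. Of 20 genes of transforming growth factor beta signalling 2 were called higher and 1 lower, against 9.3% and 9.57% of all genes. Without Control replicate 1 the counts were 4 and 1. The lower one was Acvr1b, an activin receptor, with 63.8, 74.7 and 73.7 CPM in Control and 42.4, 44.5 and 38.8 CPM in VP4:2 and a log2 fold change of -0.76 (SE 0.11, adjusted p = 0.0037). Sox9, the cartilage factor, was called higher, with 1.35, 1.56 and 1.13 CPM in Control and 11.1, 7.197 and 3.08 CPM in VP4:2 and a log2 fold change of 2.40 (SE 0.46, adjusted p = 0.0081). Red blood cell genes were uneven within both groups: 4 genes summed to 329, 2181 and 181 CPM in Control and 589, 1673 and 681 CPM in VP4:2, and none was called (0 at an unadjusted p under 0.05, 0 by DESeq2 and 0 by limma-voom).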
